A study of Mus musculus with 12 samples.

Results

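Reactive astrocyte genes were followed through spinal cord lesions of ovariectomised and intact female mice. The 10 genes, Gfap, Vim, Nes, Lcn2, Serpina3n, Cd44, S1pr3, Osmr, Steap4 and Aspg, were taken by symbol from tables of 57180 genes, and each symbol matched 1 row. Gene spans given with the members are RefSeq's on GRCm38.p6, an older build than the GRCm39 of the submitters' notes. All 10 passed the filter on low counts, as did 17820 genes of the whole table. Bulk RNA was sequenced from the T9-T10 lesion with about 0.5 cm of cord on each side, 7 days after a clip-compression injury, in 3 groups of 4 biological replicates. All animals were female C57BL/6J wild-type mice and all were injured. In OVX8_SCI7 the ovaries were removed 8 weeks before the injury, in OVX2_SCI7 they were removed 2 weeks before it, and SCI7 mice had the injury alone. The labels name no sham ovariectomy and no hormone treatment, and they give an age of 8 weeks in every group without saying at which step. Time since ovariectomy and age at injury therefore cannot be told apart. No uninjured cord was analysed here, so the response to the injury itself was not measured.

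Astrocytes near a lesion become reactive: they enlarge, build up intermediate filaments and switch on a set of secreted proteins, receptors and enzymes. Cytokines of the interleukin-6 family, which signal through the shared receptor gp130 and the transcription factor STAT3, are a known driver of this state in injured cord. Several of these genes are also active in other cells of a lesion, with vimentin in fibroblasts, macrophages and endothelium, Cd44 in leukocytes and lipocalin-2 in neutrophils. In bulk tissue fewer cells of a type and less RNA per cell cannot be told apart.

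The start regions are shown for the pair of members most alike between libraries, Vim and Nes, and for the pair most unlike, Gfap and Steap4, which were also the members with a STAT-type motif. Whether these letters have a part in how the genes varied was not tested. Each window runs 5′ to 3′ from 250 bases before the start of the gene to 50 bases after it (RefSeq, GRCm38.p6), and capitals mark a match to the STAT motif. The Gfap window lies at chr11:102897151-102897450 on the minus strand, the Steap4 window at chr5:7960222-7960521 on the plus strand, the Vim window at chr2:13574061-13574360 on the plus strand and the Nes window at chr3:87970843-87971142 on the plus strand.
Gfap: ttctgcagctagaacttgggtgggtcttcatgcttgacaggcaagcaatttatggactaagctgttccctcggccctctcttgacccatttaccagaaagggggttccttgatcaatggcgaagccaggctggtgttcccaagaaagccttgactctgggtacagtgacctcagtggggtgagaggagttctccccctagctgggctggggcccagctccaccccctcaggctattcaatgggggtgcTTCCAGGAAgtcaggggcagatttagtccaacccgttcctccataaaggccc
Steap4: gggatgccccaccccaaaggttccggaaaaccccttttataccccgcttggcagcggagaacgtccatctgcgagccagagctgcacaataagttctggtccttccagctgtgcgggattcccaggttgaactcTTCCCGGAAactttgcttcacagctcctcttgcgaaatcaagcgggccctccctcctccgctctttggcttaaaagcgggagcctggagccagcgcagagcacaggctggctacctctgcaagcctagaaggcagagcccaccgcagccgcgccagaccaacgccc
Vim: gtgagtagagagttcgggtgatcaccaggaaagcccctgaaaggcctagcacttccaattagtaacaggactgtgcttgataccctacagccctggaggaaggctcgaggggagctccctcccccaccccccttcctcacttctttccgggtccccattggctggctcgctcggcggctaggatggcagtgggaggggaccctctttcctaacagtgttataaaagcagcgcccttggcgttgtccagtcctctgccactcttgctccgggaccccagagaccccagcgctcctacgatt
Nes: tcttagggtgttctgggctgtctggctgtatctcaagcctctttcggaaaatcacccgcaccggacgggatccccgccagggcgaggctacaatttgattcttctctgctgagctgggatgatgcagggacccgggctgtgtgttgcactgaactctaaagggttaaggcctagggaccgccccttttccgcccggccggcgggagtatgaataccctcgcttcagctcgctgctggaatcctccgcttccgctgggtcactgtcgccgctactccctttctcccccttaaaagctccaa

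The STAT motif was searched as TTCNNNGAA, which reads the same on both strands. It occurred in Gfap as TTCCAGGAA, whose first base lies 2 bases upstream of the start, and in Steap4 as TTCCCGGAA, 116 bases upstream. These letters were found in 8.30% of 32851 mouse windows of the same length. The AP-1 motif, searched as TGANTCA, was found in Osmr alone among the members, as TGATTCA 3 bases downstream of the start used for its window, which lies inside the gene span given below, and in 7.81% of all windows. The palindromic oestrogen response element, searched on both strands with any 3 bases between its arms, was in none of the 10 windows and in 0.0700% of all windows. A match is a description of the letters, and these windows hold no measurement of binding.

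No member passed the test in any of the 3 comparisons. Counts were tested with edgeR's quasi-likelihood F-test over all 17820 genes, at a Benjamini-Hochberg adjusted p under 0.05, on 18222809 to 31781728 counts per library. Between OVX8_SCI7 and SCI7, 27.5% of all genes passed this test (4893 genes, 11.9% of all genes higher and 15.6% lower) and 0 of the 10 members did. Between OVX2_SCI7 and SCI7 the test called 0% of all genes and 0 members, although 5787 genes, 32.5% of them all, reached an unadjusted p of 0.05. Between OVX8_SCI7 and OVX2_SCI7 it called 0% of all genes and 0 members, and 393 genes, 2.21% of them all, reached an unadjusted p of 0.05. The joint test of the 3 groups called 14.8% of all genes and 0 members. Leaving out single libraries moved the genes called between OVX8_SCI7 and SCI7 from 0, without OVX8_SCI7 replicate 2, to 6710. Each call in OVX8_SCI7 given below from the edgeR test above is thus lost without replicate 2. There 6068 genes still had an unadjusted p under 0.05. Calls given below from other settings were not fitted again without that library.

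The members' differences were spread around zero. Their median log2 fold change was 0.02 between OVX8_SCI7 and SCI7, with 5 higher and 5 lower, beside 0.01 over all genes tested. Between OVX2_SCI7 and SCI7 it was 0.18, with 6 higher and 4 lower, beside 0.04 over all genes. Unadjusted p under 0.05 was reached by 2 members in the first comparison, Aspg and Serpina3n, beside 43.2% of all genes, and by 1 in the second, Aspg. DESeq2 called Serpina3n in the first (adjusted p = 0.0314), beside 35.9% of all genes, and Aspg in the second (adjusted p = 0.0177), beside 20.8% of all genes. No member had 4 libraries of an ovariectomised group wholly above or below the 4 SCI7 libraries in CPM (counts scaled to the size of the library), whereas 39.1% of all genes did so for OVX8_SCI7 and 12.4% for OVX2_SCI7.

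**Figure D1:**
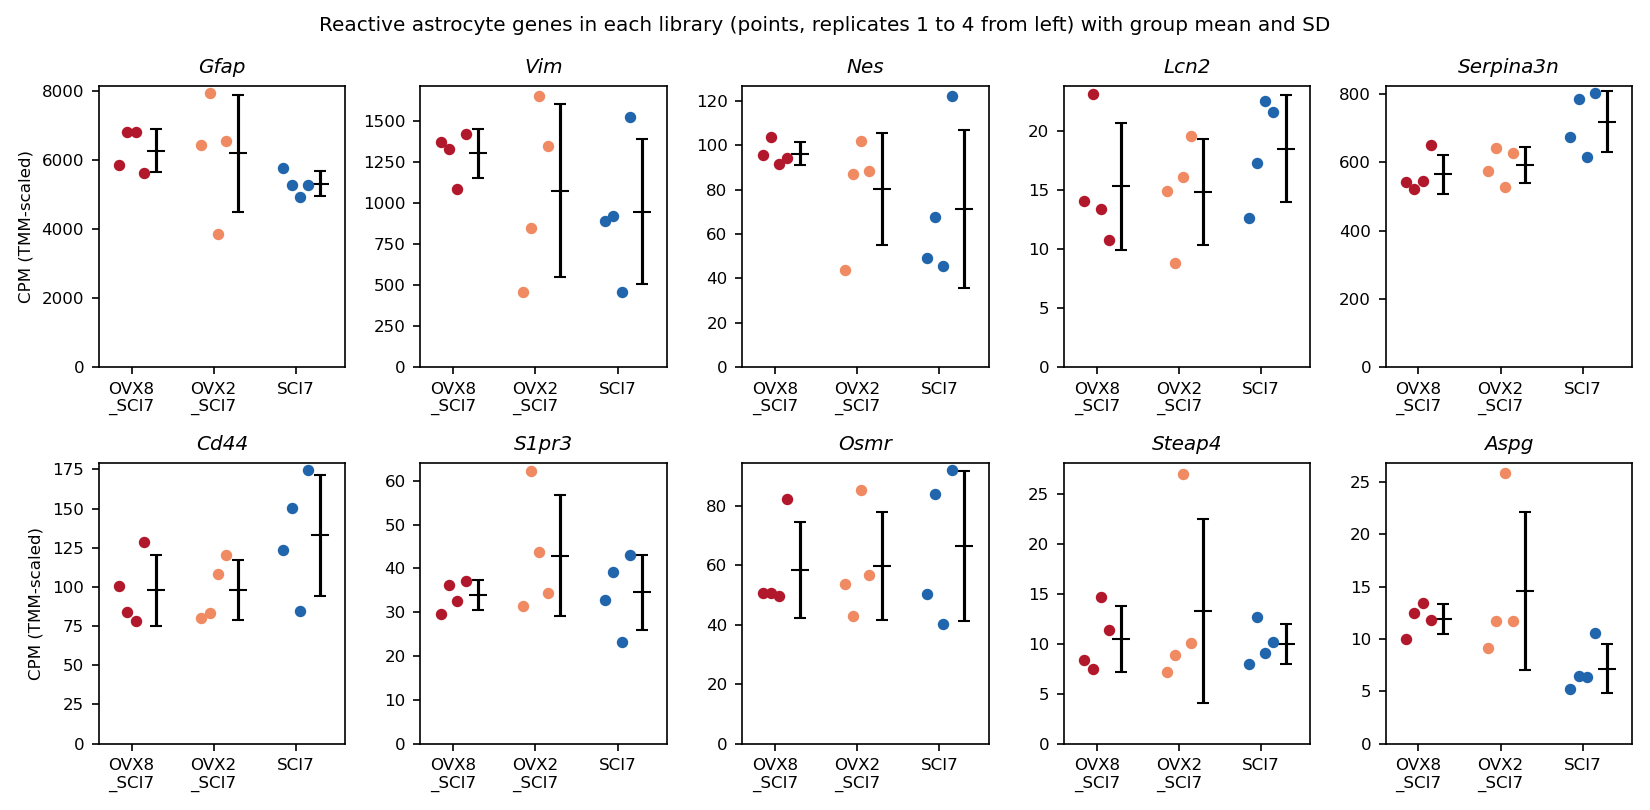
CPM of each member (vertical axes, from 0) in each library of OVX8_SCI7, OVX2_SCI7 and SCI7; points are replicates 1 to 4 from left to right and the bar beside them is the group mean with its SD (n = 4). The libraries of the groups overlap for every member, and 1 OVX2_SCI7 library stands far above the others for Steap4 (27.0 CPM) and for Aspg (25.8 CPM).

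The members cover a wide range of abundance. In TPM, a share of transcripts that allows for their length, Gfap led with 4066 ± 941 over the 12 libraries (SD), and Vim followed with 1341 ± 475 and Serpina3n with 567 ± 115. Cd44 at 46.4 ± 13.0 TPM and Lcn2 at 40.01 ± 12.1 TPM did not differ beyond their spread, and neither did Nes at 23.1 ± 7.56 TPM and Osmr at 20.7 ± 6.62 TPM. S1pr3 at 14.5 ± 4.69 TPM, Aspg at 10.6 ± 5.05 TPM and Steap4 at 6.24 ± 2.603 TPM were the lowest, and each overlapped its neighbour. Even these rested on many reads, with 99 to 482 counts per library for Aspg and 136 to 503 for Steap4.

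Gfap (ENSMUSG00000020932, chr11:102887336-102897200) encodes the intermediate filament protein by which astrocytes are usually stained. It had 5836, 6802, 6799 and 5610.1 CPM in the OVX8_SCI7 libraries, 6437, 7932, 3854 and 6534 CPM in the OVX2_SCI7 libraries, and 5776, 5282, 4914 and 5273 CPM in the SCI7 libraries. Of the OVX8_SCI7 and the OVX2_SCI7 libraries, 3 each lay above every SCI7 library, but OVX2_SCI7 also held the lowest of all 12, in replicate 3. The log2 fold change was 0.24 ± 0.23 (SE) for OVX8_SCI7 against SCI7 (95% interval -0.26 to 0.74, adjusted p = 0.444) and 0.22 ± 0.23 for OVX2_SCI7 against SCI7 (-0.28 to 0.72, adjusted p = 0.517, edgeR). The upper bounds stand for folds of 1.67 in OVX8_SCI7 and 1.65 in OVX2_SCI7. A correction fitted in each library for transcript GC content and length, called the GC and length offset below, turned the sign, to -0.25 for OVX8_SCI7 and -0.13 for OVX2_SCI7. With this offset 0 of all genes passed in OVX8_SCI7 against SCI7. A call lost with it in that comparison therefore does not set a gene apart.

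Vim (ENSMUSG00000026728, chr2:13574311-13582826) encodes vimentin, the filament partner of Gfap in reactive astrocytes and the main filament of mesenchymal cells. It had 1374, 1335, 1089 and 1425 CPM in OVX8_SCI7, 460.4, 847, 1656 and 1349 CPM in OVX2_SCI7, and 890.3, 923, 456 and 1530 CPM in SCI7. The OVX8_SCI7 libraries lay close together, while the highest library of OVX2_SCI7 and of SCI7 held more than 3 times the CPM of the lowest. Its log2 fold change was 0.46 ± 0.40 for OVX8_SCI7 against SCI7 (95% interval -0.40 to 1.32) and 0.18 ± 0.40 for OVX2_SCI7 against SCI7 (-0.68 to 1.04), with adjusted p of 0.388 and 0.769 (edgeR), and the second turned to -0.16 with the GC and length offset.

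Nes (ENSMUSG00000004891, chr3:87971093-87980451) encodes nestin, a filament protein of neural precursors that reactive astrocytes take up again. It had 95.6, 104, 91.6 and 94.3 CPM in OVX8_SCI7, 44.0, 87.1, 102 and 88.3 CPM in OVX2_SCI7, and 49.2, 67.8, 45.4 and 122 CPM in SCI7. All OVX8_SCI7 libraries exceeded 3 of the 4 SCI7 libraries, and SCI7 replicate 4 was the highest of the 12. The log2 fold change of 0.44 ± 0.31 for OVX8_SCI7 against SCI7 (adjusted p = 0.300, edgeR) became 0.83 without SCI7 replicate 4 (adjusted p = 0.0361, beside 26.8% of all genes called) and 0.01 with the GC and length offset.

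Of 5 genes whose products bind or extend these filaments, 1 rose in OVX8_SCI7: Plec, which encodes the linker plectin, averaged 277 ± 38.6 CPM in OVX8_SCI7 and 143 ± 48.4 CPM in SCI7 (log2 fold change 0.95 ± 0.28 SE, adjusted p = 0.0304, edgeR). Synm, the synemin gene, had a log2 fold change of 0.13, Dst, the dystonin gene, of 0.26 and Des, the desmin gene, of 0.31, and none of these passed. The 1 of 5 stands beside 27.5% of all genes. The list's median was 0.26 beside 0.01 for all genes, and 0.02 with the GC and length offset. In OVX2_SCI7 0 of the 5 passed. Plec had 0.21 in OVX8_SCI7 with the GC and length offset, where 0 of all genes were called.

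Aspg (ENSMUSG00000037686, chr12:112106683-112127573) encodes an asparaginase and had the largest log2 fold change of the 10 members against SCI7 in both ovariectomised groups, though not with the GC and length offset. It had 10.05, 12.5, 13.4 and 11.8 CPM in OVX8_SCI7, 9.17, 11.7, 25.8 and 11.7 CPM in OVX2_SCI7, and 5.23, 6.50, 6.38 and 10.6 CPM in SCI7. In each ovariectomised group 3 of 4 libraries lay above all SCI7 libraries, of which replicate 4 was the highest. The fold was 1.66 for OVX8_SCI7 (95% interval 1.03 to 2.69, adjusted p = 0.0987) and 2.03 for OVX2_SCI7 (1.26 to 3.29, adjusted p = 0.0644, edgeR over 4 against 4 libraries).

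The Aspg difference passed in some settings and shrank in others. For OVX2_SCI7 the adjusted p was 0.0143 without OVX2_SCI7 replicate 1 (log2 fold change 1.17), where 34.7% of all genes were called, and over all settings tried it ran from 0.00826 to 0.620. For OVX8_SCI7 the adjusted p was 0.0443 without SCI7 replicate 4 and 0.0270 without OVX2_SCI7 replicate 3, where 26.8% and 33.4% of all genes were called, and it ran from 0.0258 to 0.865 over all settings. Under the GC and length offset the log2 fold change was 0.11 in OVX8_SCI7, against 0.73 without it, and 0.51 in OVX2_SCI7, against 1.02 without it. Lcn2 (-0.73), Serpina3n (-0.57) and Steap4 (0.50) were then further from 0 in OVX8_SCI7, and Steap4 (0.81) and Lcn2 (-0.79) in OVX2_SCI7. The 2 groups of ovariectomised mice shared the SCI7 libraries, and between them Aspg differed by -0.29 ± 0.31 (log2, OVX8_SCI7 against OVX2_SCI7).

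Serpina3n (ENSMUSG00000021091, chr12:104406646-104414334) encodes a secreted inhibitor of serine proteases and is among the most responsive genes of reactive astrocytes. It had 543, 523, 545 and 650.3 CPM in OVX8_SCI7, 573, 641, 528 and 628 CPM in OVX2_SCI7, and 675, 785, 615 and 802 CPM in SCI7. In OVX8_SCI7 3 of 4 libraries lay below every SCI7 library. The log2 fold change was -0.35 ± 0.15 for OVX8_SCI7 against SCI7 (95% interval -0.68 to -0.01, adjusted p = 0.103) and -0.28 ± 0.15 for OVX2_SCI7 against SCI7 (-0.61 to 0.05, adjusted p = 0.221, edgeR). Its SE was the smallest of the members, and it was negative under every setting tried, from -0.57 to -0.29 in OVX8_SCI7 and from -0.46 to -0.22 in OVX2_SCI7.

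The counts of Serpina3n can share reads with its neighbours in the Serpina3 cluster on chromosome 12. Of its 50-base stretches 6.90% occur in transcripts of 7 other genes, of which the pseudogene Serpina3e-ps shares the most with 2.68%, while the other 9 members share none. Serpina3g, the most abundant of the paralogs tested, averaged 8.45 ± 1.15 CPM in OVX8_SCI7, 10.6 ± 6.67 CPM in OVX2_SCI7 and 8.21 ± 3.31 CPM in SCI7, far below Serpina3n. Serpina3c, Serpina3h and Serpina3i had log2 fold changes of -0.57, -0.42 and -0.50 in OVX8_SCI7 against SCI7, and none of the 4 paralogs tested passed in either comparison with SCI7. A further row of Serpina3h held no rounded counts in any library and was not tested.

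Lcn2 (ENSMUSG00000026822, chr2:32384637-32387739) encodes lipocalin-2, a secreted carrier of iron-binding siderophores. It had 14.1, 23.1, 13.4 and 10.7 CPM in OVX8_SCI7, 14.95, 8.82, 16.1 and 19.5 CPM in OVX2_SCI7, and 12.6, 17.3, 22.5 and 21.6 CPM in SCI7. The 3 groups overlapped, and the highest and the lowest library both belonged to an ovariectomised group. Lcn2 had a log2 fold change of -0.27 ± 0.29 for OVX8_SCI7 against SCI7 (adjusted p = 0.492) and -0.32 ± 0.29 for OVX2_SCI7 against SCI7 (adjusted p = 0.454, edgeR), and with the GC and length offset -0.73 (adjusted p = 0.291) and -0.79 (adjusted p = 0.354). Its receptor genes Slc22a17 and Lrp2 did not pass, with log2 fold changes of 0.58 and -0.42 in OVX8_SCI7 against SCI7.

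The gene most like Lcn2 over the 12 libraries was S100a8, with a Pearson r of 0.88 among 12257 genes, and the second was S100a9 (0.86). Both encode calprotectin subunits that are abundant in neutrophils, and S100a8 had 4.59 CPM in the library with the least Lcn2 (OVX2_SCI7 replicate 2). S100a8 averaged 8.73 ± 2.54 CPM in OVX8_SCI7, 9.96 ± 4.35 CPM in OVX2_SCI7 and 13.7 ± 1.99 CPM in SCI7. The whole list of 9 neutrophil markers summed to 102 to 155 CPM in OVX8_SCI7, 104 to 145 CPM in OVX2_SCI7 and 113 to 140 CPM in SCI7, with no marker at 0 in all libraries of a group. Over the 12 libraries Lcn2 was not detectably related to this sum, with r = 0.53 (permutation p = 0.0788, adjusted p = 0.223 over 130 relations) and rho = 0.42 (permutation p = 0.177, adjusted p = 0.406), and r was 0.72 without the 2 libraries farthest from the median.

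Cd44 (ENSMUSG00000005087, chr2:102811141-102901669) encodes the cell surface receptor for hyaluronan and osteopontin. It had 100.4, 84.2, 78.4 and 129 CPM in OVX8_SCI7, 80.2, 83.4, 108 and 120.1 CPM in OVX2_SCI7, and 123, 150.3, 84.4 and 174 CPM in SCI7. SCI7 held the 2 highest libraries but also one as low as those of the ovariectomised groups. Cd44 had a log2 fold change of -0.44 ± 0.24 in both groups against SCI7, with adjusted p of 0.170 for OVX8_SCI7 and 0.212 for OVX2_SCI7 (edgeR). The GC and length offset brought it to 0.01 in OVX8_SCI7 and -0.01 in OVX2_SCI7.

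None of 8 genes for hyaluronan synthesis, its breakdown and other Cd44 ligands passed in any comparison. Has2, a hyaluronan synthase gene, averaged 3.03 ± 0.79 CPM in OVX8_SCI7, 1.92 ± 0.46 CPM in OVX2_SCI7 and 6.90 ± 4.62 CPM in SCI7, with adjusted p of 0.0528 and 0.0520 against SCI7 (edgeR). Cemip, whose product degrades hyaluronan, averaged 61.5 ± 13.3 CPM in OVX8_SCI7, 53.3 ± 43.3 CPM in OVX2_SCI7 and 24.2 ± 11.7 CPM in SCI7. Hyal2, a hyaluronidase gene, had a log2 fold change of 0.79 (adjusted p = 0.0607) and Mmp9, for a matrix metalloprotease, of 0.72 (adjusted p = 0.1003) in OVX8_SCI7 against SCI7. The list's median was 0.24 in OVX8_SCI7 and 0.21 in OVX2_SCI7 against SCI7, and 0.21 and 0.15 with the GC and length offset.

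Osmr (ENSMUSG00000022146, chr15:6813568-6874968) encodes the subunit that pairs with gp130 to bind oncostatin M. It had 50.5, 50.6, 49.7 and 82.4 CPM in OVX8_SCI7, 53.7, 43.0, 85.4 and 56.7 CPM in OVX2_SCI7, and 50.3, 83.9, 40.1 and 91.9 CPM in SCI7. In OVX8_SCI7 and OVX2_SCI7 1 library each stood above the rest, and in SCI7 2 did, so that the groups overlapped throughout. The log2 fold change was -0.19 ± 0.30 for OVX8_SCI7 (95% interval -0.83 to 0.45) and -0.16 ± 0.30 for OVX2_SCI7 (-0.80 to 0.48), with adjusted p of 0.642 and 0.731 (edgeR).

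Genes for the ligands and receptors around Osmr were followed in OVX8_SCI7 against SCI7. Of 5 gp130 receptor genes, 2 rose and 1 fell, beside 27.5% of all genes called: Il11ra1, for the interleukin-11 receptor, had a log2 fold change of 1.13 ± 0.26 (adjusted p = 0.0149), Cntfr, for the receptor of ciliary neurotrophic factor, 0.72 ± 0.24 (adjusted p = 0.0469), and Lifr, for that of leukaemia inhibitory factor, -0.75 ± 0.26 (adjusted p = 0.0493, all edgeR). With the GC and length offset, where 0 of all genes passed, Il11ra1 had 0.45, Cntfr turned to -0.04 and Lifr had -0.23. Il6ra, for the interleukin-6 receptor, had 0.37 and did not pass. Of 6 cytokine genes tested, Osm itself among them, 0 passed, and Osm averaged 6.11 ± 3.21 CPM in OVX8_SCI7 and 3.36 ± 2.496 CPM in SCI7 (log2 fold change 0.86, adjusted p = 0.366). Further ligand genes had log2 fold changes of -0.14 for Cntf, -0.34 for Ctf1 and 0.33 for Clcf1. With the GC and length offset Osm had 0.48, Cntf 0.06, Ctf1 -0.88 and Clcf1 -0.16. Whether receptors and ligands differ was not tested. The median log2 fold change was 0.37 for the receptor list and 0.06 for the cytokines, beside 0.01 for all genes. With the GC and length offset these were 0.13 and -0.10, beside -0.003 for all genes.

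Downstream, 2 of 8 JAK-STAT3 genes passed in OVX8_SCI7, in opposite directions, beside 27.5% of all genes. Jak2 fell by 0.68 ± 0.18 on the log2 scale (adjusted p = 0.0199) and Tyk2 rose by 1.04 ± 0.30 (adjusted p = 0.0274, edgeR), both kinases that attach to cytokine receptors. With the GC and length offset, where 0 of all genes passed, Jak2 had -0.20 and Tyk2 0.50. Socs1, for a feedback inhibitor, had 1.45 (adjusted p = 0.111) and Pias3, for an inhibitor of STAT3, 0.53 (adjusted p = 0.0902). Central genes of the pathway did not pass: Stat3 averaged 199.6 ± 13.4 CPM in OVX8_SCI7 and 168 ± 27.7 CPM in SCI7, and Socs3, the feedback inhibitor, 22.2 ± 3.60 CPM in OVX8_SCI7 and 13.5 ± 9.85 CPM in SCI7. Stat3 and Socs3 were named after their values were seen. The list's median was 0.39 in OVX8_SCI7, and 0.08 with the GC and length offset. In OVX2_SCI7 0 of the 8 passed.

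S1pr3 (ENSMUSG00000067586, chr13:51408618-51422797) encodes a receptor for the lipid sphingosine-1-phosphate. It had 29.6, 36.2, 32.7 and 37.1 CPM in OVX8_SCI7, 31.3, 62.2, 43.8 and 34.4 CPM in OVX2_SCI7, and 32.8, 39.2, 23.3 and 43.0 CPM in SCI7. The OVX8_SCI7 libraries lay within the SCI7 range, and the highest library was OVX2_SCI7 replicate 2. The log2 fold change was -0.03 ± 0.23 for OVX8_SCI7 (95% interval -0.53 to 0.48) and 0.31 ± 0.23 for OVX2_SCI7 (-0.19 to 0.82), with adjusted p of 0.940 and 0.358 against SCI7 (edgeR).

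In the same pathway 2 of 9 genes passed in OVX8_SCI7, beside 27.5% of all genes. Sphk2, a kinase gene that makes sphingosine-1-phosphate, averaged 44.7 ± 6.04 CPM in OVX8_SCI7 and 21.9 ± 1.497 CPM in SCI7 and rose by 1.03 ± 0.17 (log2, adjusted p = 0.0143). Sgpp1, a phosphatase gene that removes it, averaged 43.7 ± 3.62 CPM in OVX8_SCI7 and 89.4 ± 18.5 CPM in SCI7 and fell by 1.03 ± 0.22 (adjusted p = 0.0143, edgeR). The other receptor genes did not pass, with S1pr1 at a log2 fold change of -0.33 and S1pr4 at 1.11. In OVX2_SCI7 against SCI7, Sphk2 had a log2 fold change of 0.86 (adjusted p = 0.0520) and Sgpp1 of -0.81 (adjusted p = 0.0541). The GC and length offset brought Sphk2 to 0.37 and Sgpp1 to -0.70 in OVX8_SCI7, where 0 of all genes then passed.

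Steap4 (ENSMUSG00000012428, chr5:7960472-7982213) encodes a metalloreductase of iron and copper and was the member lowest in TPM. It had 8.33, 7.48, 14.7 and 11.4 CPM in OVX8_SCI7, 7.21, 8.82, 27.0 and 10.1 CPM in OVX2_SCI7, and 7.98, 12.6, 9.11 and 10.2 CPM in SCI7. Apart from OVX2_SCI7 replicate 3, the libraries of the 3 groups overlapped. Steap4 had a log2 fold change of 0.07 ± 0.39 for OVX8_SCI7 and 0.41 ± 0.39 for OVX2_SCI7 against SCI7 (adjusted p = 0.908 and 0.470, edgeR), and the second was -0.20 without replicate 3 of OVX2_SCI7.

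Of 4 genes of the Steap family and iron uptake, 2 fell in OVX8_SCI7, where 27.5% of all genes passed in either direction and 15.6% fell. Tfrc, the transferrin receptor gene, averaged 82.7 ± 12.3 CPM in OVX8_SCI7 and 169.7 ± 34.8 CPM in SCI7 (log2 fold change -1.04 ± 0.26, adjusted p = 0.0179), and Steap2 averaged 29.2 ± 2.76 CPM in OVX8_SCI7 and 57.1 ± 13.9 CPM in SCI7 (-0.97 ± 0.33, adjusted p = 0.0459, edgeR). Tfrc had -0.15 and Steap2 -0.01 with the GC and length offset. Steap3, for a reductase of endosomes, had 1.02 (adjusted p = 0.117) and Steap1 -1.003 (adjusted p = 0.156) in OVX8_SCI7. None of the 4 passed in OVX2_SCI7.

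**Figure D2:**
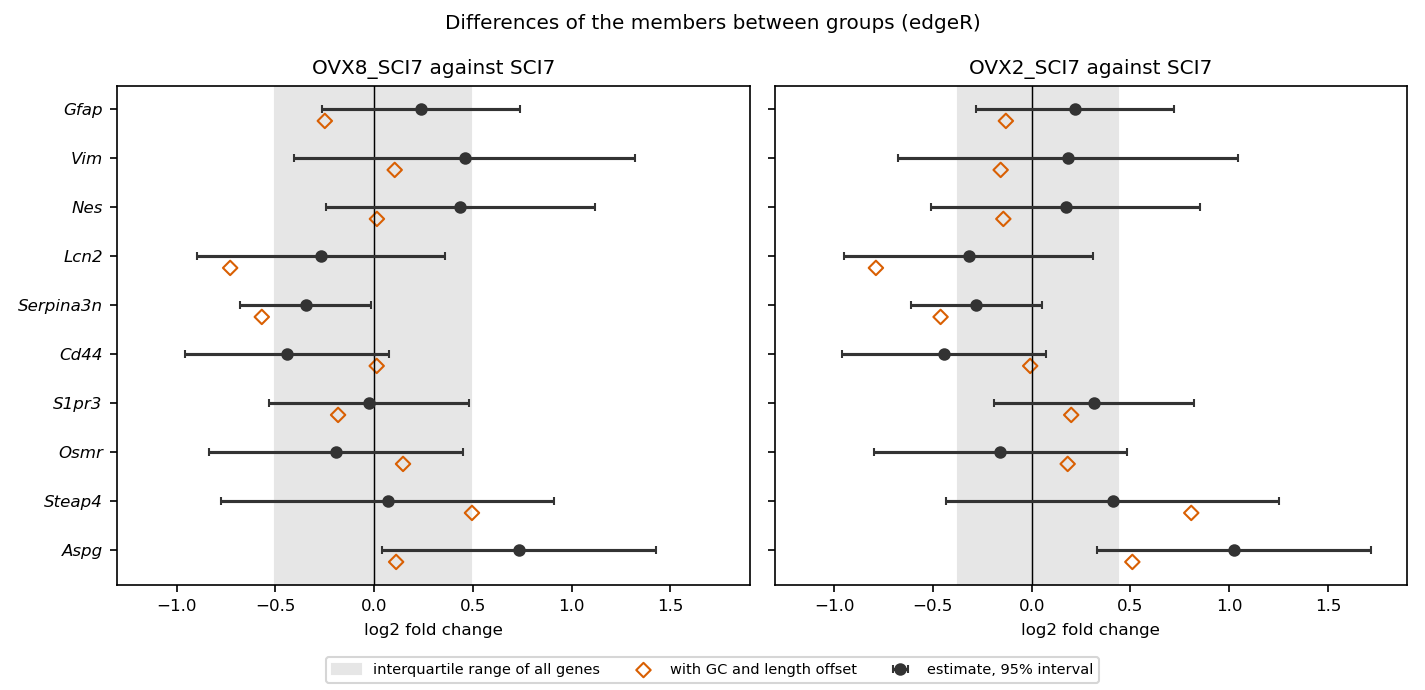
Log2 fold change of each member (horizontal axes) in OVX8_SCI7 and in OVX2_SCI7 against SCI7, as the edgeR estimate with its 95% interval (filled points and bars) and as the estimate with the GC and length offset (open diamonds); the grey band is the interquartile range of all genes tested. Aspg is the member furthest from 0 in both panels without the offset (0.73 and 1.02), and the offset moves Cd44, Osmr and Steap4 up and the other 7 members down.

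Beyond the members, 3 genes on the lists used to describe kinds of reactive astrocytes passed in OVX8_SCI7, where 27.5% of all genes did. Of 11 genes of the A1 type, which is induced by inflammation, 2 rose in OVX8_SCI7: H2-D1, a class I histocompatibility gene, averaged 579 ± 78.6 CPM in OVX8_SCI7 and 199 ± 60.2 CPM in SCI7 (log2 fold change 1.54 ± 0.40, adjusted p = 0.0195), and its relative H2-T23 averaged 66.4 ± 10.7 CPM in OVX8_SCI7 and 22.8 ± 5.31 CPM in SCI7 (1.54 ± 0.43, adjusted p = 0.0242, edgeR). Both genes are expressed by most cell types. Of 12 genes of the A2 type, which is induced by ischaemia, 1 fell: B3gnt5, for a glycosyltransferase, averaged 2.47 ± 0.40 CPM in OVX8_SCI7 and 6.35 ± 2.72 CPM in SCI7 (-1.36 ± 0.37, adjusted p = 0.0215, edgeR). In OVX2_SCI7 the folds of these 3 genes were further from 0, with 1.76 for H2-D1, 1.75 for H2-T23 and -1.64 for B3gnt5, each at an adjusted p of 0.0520. The GC and length offset gave, in OVX8_SCI7, 1.03 for H2-D1, 1.14 for H2-T23 and -0.42 for B3gnt5, where 0 of all genes then passed.

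Among genes of these lists that did not pass in OVX8_SCI7 or OVX2_SCI7, Iigp1 and Gbp2, for interferon-induced GTPases, had log2 fold changes of -0.62 and 0.58 in OVX8_SCI7 and of 0.77 and 1.07 in OVX2_SCI7, against SCI7. Slc10a6, for a transporter of steroid sulphates, averaged 0.43 ± 0.12 CPM in OVX8_SCI7, 1.75 ± 0.91 CPM in OVX2_SCI7 and 0.38 ± 0.24 CPM in SCI7 (adjusted p = 0.851 for OVX8_SCI7 and 0.0520 for OVX2_SCI7, edgeR). Cd109, for a surface protein that binds TGF-beta, had -0.51 in OVX8_SCI7 and -0.94 in OVX2_SCI7, and Cd14, for a co-receptor of bacterial lipopolysaccharide, had 1.14 in OVX8_SCI7 and 0.65 in OVX2_SCI7. With the GC and length offset Iigp1 had 0.33, Gbp2 0.84, Cd109 -0.08 and Cd14 0.89 in OVX8_SCI7. In OVX2_SCI7 the offset gave 1.53 for Iigp1, 1.29 for Gbp2, -0.52 for Cd109 and 0.33 for Cd14.

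None of 4 further genes common to both types passed. Hspb1, a small heat shock protein gene, averaged 92.6 ± 22.7 CPM in OVX8_SCI7, 104 ± 42.9 CPM in OVX2_SCI7 and 52.4 ± 7.38 CPM in SCI7, with adjusted p of 0.0614 and 0.0635 against SCI7 (edgeR). Cxcl10, a chemokine gene, had 0.58 in OVX8_SCI7 and 1.29 in OVX2_SCI7, Cp, the ceruloplasmin gene, -0.56 in OVX8_SCI7 and -0.45 in OVX2_SCI7, and Timp1, for an inhibitor of metalloproteases, -0.03 in OVX8_SCI7 and 0.02 in OVX2_SCI7. Hspb1 had 0.82 in OVX8_SCI7. With the GC and length offset Hspb1 had -0.06, Cxcl10 0.52, Cp 0.12 and Timp1 -0.32 in OVX8_SCI7. In OVX2_SCI7 the offset gave 0.12 for Hspb1, 1.18 for Cxcl10, 0.16 for Cp and -0.49 for Timp1. The median log2 fold changes were 0.58 for the A1 list, 0.14 for the A2 list and 0.28 for the common list in OVX8_SCI7, and 0.77, 0.07 and 0.50 in OVX2_SCI7, where 0 genes of the 3 lists passed. With the GC and length offset these medians were 0.51, 0.007 and 0.03 in OVX8_SCI7, and 0.75, -0.22 and 0.14 in OVX2_SCI7. In OVX8_SCI7 against SCI7 no gene of these or the pathway lists passed with the GC and length offset, where 0 of all genes did.

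Astrocyte content was gauged from 15 identity markers, all detected in every library. Their sum was 6457 to 7818 CPM in OVX8_SCI7, 4207 to 12846 CPM in OVX2_SCI7 and 7158 to 10908 CPM in SCI7. In OVX8_SCI7 1 of the markers passed, beside 27.5% of all genes: Gja1, the connexin 43 gene, fell by 0.63 ± 0.17 (log2, adjusted p = 0.0219, edgeR). Of the 15 markers 6 were higher and 9 lower there, with a median of -0.10, and -0.25 with the GC and length offset. Set against the mean log2 CPM of these markers in the same library, Gfap lay 4.55 ± 0.06 higher in OVX8_SCI7, 4.43 ± 0.27 higher in OVX2_SCI7 and 4.12 ± 0.27 higher in SCI7 (log2, SD, n = 4 each). These values are a description without a test. The OVX8_SCI7 range, 4.51 to 4.63, did not overlap the SCI7 range, 3.76 to 4.41, which held for 1 of the 10 members and for 32.1% of all genes taken in the same way. Gfap's own difference turned to -0.25 with the GC and length offset. Serpina3n lay 1.08 ± 0.24, 1.09 ± 0.45 and 1.23 ± 0.42 higher in OVX8_SCI7, OVX2_SCI7 and SCI7. Gja1 had -0.23 with the GC and length offset.

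Within groups the libraries differed in the summed markers of macrophages and fibroblasts, called lesion markers here, and the cause was not tested. OVX2_SCI7 replicates 1 and 2 and SCI7 replicate 3 summed to 1457, 1832 and 765 CPM over 10 microglia and macrophage markers, against 3595 to 10607 CPM in the other 9 libraries, and to 1072, 2814 and 1293 CPM over 7 fibroblast markers, against 5437 to 29888 CPM. No marker of either list was at 0 in all libraries of a group. Without these 3 libraries, a setting chosen after the data were seen, 2 members passed in OVX8_SCI7, both lower: Cd44 (log2 fold change -0.62, adjusted p = 0.0204) and Serpina3n (-0.42, adjusted p = 0.0360), beside 41.4% of all genes. In OVX2_SCI7 Aspg passed (1.31, adjusted p = 0.0123), beside 37.8% of all genes.

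RNA measures also moved with the groups. Mitochondrial transcripts took 2.2 to 3.36% of counts in OVX8_SCI7, 2.36 to 8.33% in OVX2_SCI7 and 5.35 to 9.35% in SCI7. The rank correlation of a gene's deviation in a library with its GC content, across 12416 genes, was 0.18 to 0.87 in OVX8_SCI7, -0.44 to 0.54 in OVX2_SCI7 and -0.85 to -0.53 in SCI7, so that every SCI7 library lay below every OVX8_SCI7 library. The members' transcripts ran from 44.5% GC for Cd44 to 58.1% GC for Aspg. The members' median log2 fold change against SCI7 was 0.01 in OVX8_SCI7 and -0.07 in OVX2_SCI7 with the GC and length offset. With the GC and length offset 0 members and 0 of all genes passed in OVX8_SCI7 by edgeR, where 2 members, Lcn2 and Serpina3n, had an unadjusted p under 0.05, beside 15% of all genes. GC trend and group cannot be told apart in OVX8_SCI7 and SCI7.

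Over the 12 libraries the members did not move as one. Of 45 pairs, 15 had a negative Pearson r of log2 CPM. Vim and Nes were the most alike (0.90), followed by Cd44 with Osmr (0.79) and Cd44 with Serpina3n (0.79), whereas Gfap went against Steap4 (-0.63) and Osmr (-0.57). All these values share library, depth and tissue composition and are given as descriptions.

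Vim followed the genes of other lesion cells. It had a Pearson r of 0.95 with the summed fibroblast markers (permutation p = 1e-05, the smallest that 100000 permutations can give, adjusted p = 0.000433 over 130 relations) and a Spearman rho of 0.89 (permutation p = 0.00031, adjusted p = 0.00576). It had r = 0.93 and rho = 0.88 with the macrophage markers, with permutation p of 2e-05 and 0.00025 and adjusted p of 0.00065 and 0.00576. Without the 2 libraries farthest from the median of the markers these r were 0.83 for fibroblasts and 0.83 for macrophages, and over the 9 libraries other than the 3 low in lesion markers 0.75 and 0.77. With group means removed they were 0.94 and 0.92. Endothelial markers had r = 0.75 with Vim (rho = 0.90, permutation p = 0.00497 and 0.00021, adjusted p = 0.0446 and 0.00576), and 0.68 without the 2 farthest libraries.

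Vim and Nes ran against the markers of neurons and the astrocyte identity markers. For Vim r was -0.93 with neuron markers (rho = -0.99, permutation p = 1e-05 for each, adjusted p = 0.000433 and 0.00065) and -0.93 without the 2 farthest libraries. Nes had r = -0.86 with neuron markers (rho = -0.86, permutation p = 0.0002 and 0.00068, adjusted p = 0.00371 and 0.00949), and -0.87 without the 2 farthest. Its r of 0.78 with fibroblast markers (rho = 0.86, permutation p = 0.00392 and 0.00073, adjusted p = 0.0446 and 0.00949) fell to 0.44 without the 2 farthest libraries and so rests on them. Endothelial markers had r = 0.77 with Nes (rho = 0.88, permutation p = 0.00452 and 0.00028, adjusted p = 0.0446 and 0.00576), and 0.70 without the 2 farthest libraries. With the identity markers r was -0.89 for Vim (rho = -0.90, permutation p = 1e-05 and 0.00018, adjusted p = 0.000433 and 0.00576) and -0.81 for Nes (rho = -0.78, permutation p = 0.00052 and 0.00367, adjusted p = 0.00845 and 0.0367), and without the 2 farthest libraries -0.91 for Vim and -0.86 for Nes. Oligodendrocyte markers had r = -0.77 with Vim (rho = -0.94, permutation p = 0.00279 and 1e-05, adjusted p = 0.0403 and 0.00065), and -0.63 without the 2 farthest libraries. Markers of oligodendrocyte precursors (0.55), ependymal cells (0.36) and Schwann cells (0.33) gave positive r with Vim that did not pass. The gene most like Vim over the 12 libraries was Pygl (r = 0.99).

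Cd44 followed the summed markers of pericytes and smooth muscle. It had r = 0.87 and rho = 0.83 (permutation p = 0.0001 and 0.00119, adjusted p = 0.00217 and 0.0141), r = 0.80 without the 2 farthest and 0.87 with group means removed. The r of Cd44 with macrophage (0.42) and fibroblast (0.44) markers did not pass. With group means removed these were 0.84 and 0.76, and r with neuron markers was -0.82. Vim likewise had 0.83 with pericyte and smooth muscle markers once group means were removed. For Osmr no r over the 12 libraries is given with these markers, because its libraries fell into separate clusters, 8 at 40.1 to 56.7 CPM and 4 at 82.4 to 91.9 CPM. The marker sum was 642 to 1028 CPM in the 4 libraries and 327 to 537 CPM in the 8. Within the 8 the relation did not pass (r = 0.64, exact permutation p = 0.0969, rho = 0.57, exact permutation p = 0.151), and r was 0.53 without the 2 farthest. The gene most like Osmr was Il1r1, the interleukin-1 receptor gene (r = 0.97), which had 25.8 CPM in SCI7 replicate 3 and 81.4 CPM in SCI7 replicate 4. This r spans both clusters: Il1r1 had 51.2 to 81.4 CPM in the 4 libraries and 25.8 to 43.3 CPM in the 8. The r of Osmr with Cd44 and with Gfap given above span them too. These relations were chosen after the values were seen, and 12 of the 130 had adjusted p under 0.05 by both measures.

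**Figure D3:**
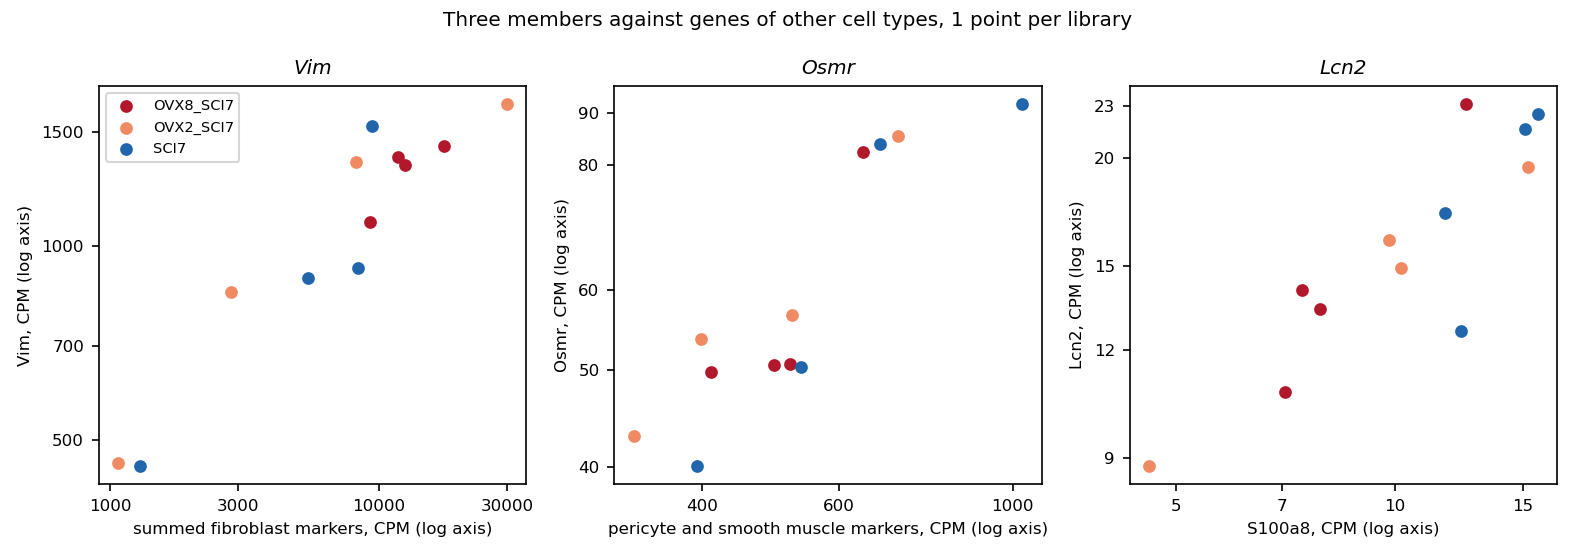
Each point is 1 library, coloured by group, on log axes in CPM: Vim against the sum of 7 fibroblast markers, Osmr against the sum of 7 pericyte and smooth muscle markers, and Lcn2 against S100a8. Vim spans 456 to 1656 CPM as the fibroblast sum spans 1072 to 29888 CPM, and the Osmr libraries form a lower cluster of 8 and an upper cluster of 4, each holding libraries of all 3 groups.

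Gfap was not detectably related to the sum of the astrocyte identity markers. Its r with that sum was 0.42 (rho = 0.11, permutation p = 0.176 and 0.733, adjusted p = 0.362 and 0.859). This r was unstable, at -0.22 without the 2 farthest libraries and 0.69 with group means removed. The gene most like Gfap was Slc13a3, a dicarboxylate transporter gene (r = 0.96), which had 17.6 CPM in the library lowest in Gfap and 47.0 CPM in the highest. Aspg ran against the identity sum, with r = -0.79 (permutation p = 0.00322, adjusted p = 0.0419), but its rho of -0.62 had an adjusted p of 0.160 (permutation p = 0.0344). It was not alone in this. The r of Aspg was 0.79 with T and NK cell, 0.72 with ependymal and -0.76 with neuron markers (permutation test, adjusted p = 0.0446 for each). By rho these 3 did not pass, and without the 2 farthest libraries r was 0.50, 0.60 and -0.52. Among further members, the most alike genes were Ints2 for Serpina3n (r = 0.89), Hycc1 for Cd44 (0.95), Uck2 for S1pr3 (0.86), C1s1 for Steap4 (0.87) and Ushbp1 for Aspg (0.96).

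**Figure D4:**
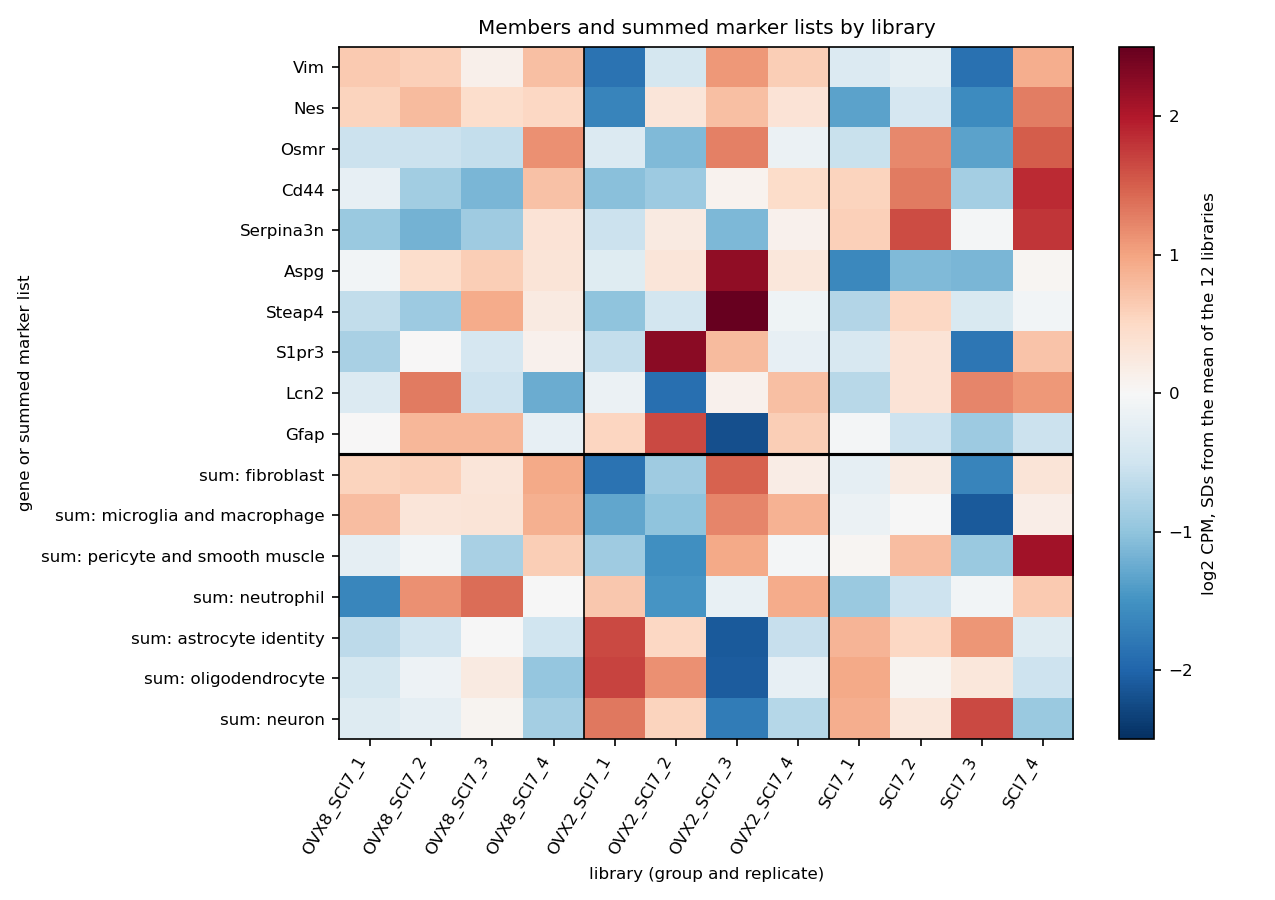
Members (upper rows) and summed marker lists (lower rows) in each library (columns, by group), as SDs of log2 CPM from the mean of the 12 libraries. OVX2_SCI7 replicate 3 is high in Aspg, Steap4 and the fibroblast sum (29888 CPM) and lowest in Gfap and the astrocyte identity sum (4207 CPM).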

How the data were processed

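In all, 12 libraries of bulk paired-end RNA sequencing were analysed, in 3 groups of 4, with groups and replicate numbers from the sample labels, which give 1 batch. Per the submitters' processing notes, reads were processed with fastp 0.23.4, HISAT2 2.2.1 and RSEM 1.3.3 on GRCm39; neither the library kit nor the use of strand was stated. The authors deposited expected counts (RSEM estimates, rounded here to whole numbers), TPM and FPKM for 57180 genes; the 3 columns of group means in each table, 9 in all, were not used. FPKM values deposited by the authors entered no result.

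Rounded counts were filtered with filterByExpr, scaled by TMM and fitted with group as the only term in edgeR 4.0.16 (R 4.3.3), with robust quasi-likelihood F-tests and Benjamini-Hochberg adjustment over 17820 genes. CPM uses the TMM-scaled library sizes, and correlations use log2(CPM + 0.5). Errors are SD for levels and SE for log2 fold changes. A floor of 3 counts stands for 0.0944 to 0.165 CPM. Replicates differed by more than counting error in every pair (chi-square per gene 13.1 to 394). The test script was tried on simulated data. The labels call the libraries biological replicates.

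The settings tried were DESeq2 size factors, DESeq2 1.42.0, no filter or a stricter one (1 CPM in 4 libraries, mean of 50 counts), limma 3.58.1 (voom, and trend on log2(TPM + 1) or log2(TPM + 0.1), also at a mean TPM of at least 1), a fit of only the 8 libraries compared, a block for replicate number, the GC and length offset, and leaving out libraries. For the offset, natural splines (5 degrees of freedom) of transcript GC content and log length were fitted in each library over genes of at least 5 CPM. GC content was known for 97.9% of tested genes, from GENCODE transcripts on GRCm38, an older build than the authors'. The GRCm38.p6 windows serve for letters and coordinates only.

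The members and gene lists were chosen with earlier results of these data known. The text names all members, up to 4 genes of a list with the smallest p in the joint test and any other list gene that passed (of marker lists mainly those that passed), and for each member the non-member gene of at least 5 CPM with the highest r. For Nes the gene so chosen is not reported here. A planned comparison of protein sequences was not run. Leaving out the 3 libraries low in lesion markers, and the 130 relations of members with 13 marker sums (100000 permutations), were added after the data were seen.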

Additional observations from a re-analysis of the deposited data

Results flagged for a closer look

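In groups of 4, a library was picked out when its gap to the nearest of the others, as a share of the group's range, passed Dixon's 95% critical value. Of 54 groups checked 7 were picked out, and chance alone does this in about 5% of groups. Osmr had 82.4 CPM in OVX8_SCI7 replicate 4, against 49.7 to 50.6 CPM in the other 3 libraries of that group. Steap4 had 27.0 CPM in OVX2_SCI7 replicate 3, against 7.21 to 10.1 CPM in the others. Aspg had 25.8 CPM in the same library, against 9.17 to 11.7 CPM in the others.

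The remaining 4 concern OVX2_SCI7 libraries as a whole. Replicate 2 had 20371555 counts in total, against 19223185 to 19381740 in the others, and its summed sensory neuron markers reached 578 CPM, against 33.6 to 120 CPM in the others. In replicate 1, mitochondrial transcripts took 8.33% of counts, against 2.36 to 3.13% in the others. Its rank correlation of deviation with GC content was -0.44, against 0.41 to 0.54 in the others.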

How the results depend on the processing

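For the 10 members, 26 other settings gave 780 values over the 3 comparisons, of which 700 kept direction and side of the threshold, 11 newly passed and 69 changed sign. The cause of each change was not tested unless the setting itself names it.

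Members called against SCI7 numbered 0 in the reported fit. In OVX8_SCI7 DESeq2 called 1, Serpina3n, beside 6403 of all genes. The 8 libraries of the comparison alone called 1, Aspg, beside 7426 genes. Without the 3 libraries low in lesion markers there were 2, Cd44 and Serpina3n, beside 7549 genes. When single libraries were left out there were 0 to 2, beside 0 to 6710 genes. In OVX2_SCI7 there was 1, each time Aspg, with DESeq2 (beside 3701 genes), without replicates 1 and 2 of OVX2_SCI7 (7141 genes) and without the 3 libraries (6902 genes). When single libraries were left out there were 0 to 1, beside 0 to 6264 genes. In the joint test there was 1, Aspg, with DESeq2 (beside 5224 genes) and without those replicates (7572 genes). There were 2, Aspg and Cd44, without the 3 libraries (7444 genes), and 0 to 1 without single libraries (0 to 6058 genes). Between OVX8_SCI7 and OVX2_SCI7 there were 0 in every setting.

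Genes called in OVX8_SCI7 against SCI7 numbered 4893. They were 0 with the GC and length offset, 7549 without the 3 libraries, 7720 without OVX2_SCI7 replicates 1 and 2, 7426 with the 8 libraries alone, 3257 with no filter, and 2973, 2850 and 2859 by limma-trend on log2(TPM + 1), log2(TPM + 0.1) and genes of at least 1 TPM, and 0 to 6710 without single libraries. In OVX2_SCI7 against SCI7 they numbered 0, but 3701 with DESeq2, 704 with limma-voom, 1144 with the stricter filter, 14 with no filter, 6 with the GC and length offset, 2 with the 8 libraries alone, 7141 without replicates 1 and 2, 6902 without the 3 libraries, 16, 12 and 15 by the limma-trend settings in the order above, and 0 to 6264 without single libraries, the highest without OVX2_SCI7 replicate 1. Between OVX8_SCI7 and OVX2_SCI7 there were 0, but 6 with DESeq2 and 0 to 1 without single libraries. The joint test called 2645, but 5224 with DESeq2, 1370 with no filter, 0 with the GC and length offset, 7572 and 7444 without the 2 and the 3 libraries, 781, 670 and 734 by limma-trend, and 0 to 6058 without single libraries.

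The replicate numbers did not pair the samples: same-numbered libraries had correlations of deviations from -0.63 to 0.50, and 5 of 12 were over 0.1. With the replicate block 3390 genes and 0 members were called in OVX8_SCI7 against SCI7 and 0 genes in the joint test, and the block with the GC and length offset called 0 genes in both. The block alone turned Steap4 in OVX8_SCI7 to -0.012.

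Log2 fold changes that changed sign follow. With the GC and length offset, and with the block added to it, Gfap was -0.25 and -0.24 in OVX8_SCI7 against SCI7, -0.13 and -0.16 in OVX2_SCI7 against SCI7, and -0.12 and -0.075 between OVX8_SCI7 and OVX2_SCI7. In OVX2_SCI7 against SCI7 Vim was -0.16 and -0.14, Nes -0.14 and -0.095, and Osmr 0.18 and 0.20. In OVX8_SCI7 against SCI7 Cd44 was 0.013 and 0.043 and Osmr 0.15 and 0.16. Cd44 was 0.012 in OVX2_SCI7 against SCI7 with the block and offset, and 0.020 and 0.031 between OVX8_SCI7 and OVX2_SCI7. Without OVX2_SCI7 replicates 1 and 2, in OVX2_SCI7 against SCI7 Gfap was -0.028 and Osmr 0.099, and between OVX8_SCI7 and OVX2_SCI7 Vim was -0.20 and Lcn2 -0.21. Without the 3 libraries Gfap was -0.083 and Lcn2 0.035 in OVX2_SCI7 against SCI7, and Vim was -0.19 and Lcn2 -0.20 between OVX8_SCI7 and OVX2_SCI7. Between OVX8_SCI7 and OVX2_SCI7, Cd44 was 0.16 by all limma-trend settings, 0.033 with no filter and 0.00070 with the 8 libraries, and Osmr was 0.047 and 0.046 by limma-trend with the smaller and the larger pseudocount and 0.00054 with no filter. S1pr3 in OVX8_SCI7 was 0.0026 with limma-voom and 0.018 with no filter.

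Without single libraries, values between OVX8_SCI7 and OVX2_SCI7 ran from -0.15 to 0.13 for Gfap, -0.22 to 0.19 for Lcn2, -0.16 to 0.089 for Cd44, -0.24 to 0.19 for Osmr, -0.56 to 0.27 for Steap4 and -0.45 to 0.14 for Aspg. In OVX8_SCI7 against SCI7 they ran from -0.18 to 0.10 for S1pr3, -0.40 to 0.0067 for Osmr and -0.15 to 0.20 for Steap4. In OVX2_SCI7 against SCI7 they ran from -0.10 to 0.51 for Vim, -0.0083 to 0.57 for Nes, -0.38 to 0.039 for Osmr and -0.20 to 0.59 for Steap4. Depth did not limit the members, which had at least 99 counts in every library. The spread between 4 libraries did, with SE of 0.15 to 0.40 on the log2 scale.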

Other observations

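Ependymal cells, which line the central canal, express Vim and Nes and respond to cord injury. In OVX8_SCI7 1 of 6 markers passed, beside 27.5% of all genes. There 4 were higher and 2 lower, with a median log2 fold change of 0.43, and 0.0004 with the GC and length offset. In OVX2_SCI7 all 6 were higher than in SCI7, with a median of 0.92, and 0.48 with the offset. The 6, all detected in every library, summed to 41.1 to 59.9 CPM in OVX8_SCI7, 46.5 to 69.0 CPM in OVX2_SCI7 and 28.8 to 35.6 CPM in SCI7. Taken singly, 39.1% of all genes in OVX8_SCI7 and 12.4% in OVX2_SCI7 also did not overlap SCI7 in CPM. Foxj1, for the transcription factor of motile cilia, averaged 29.7 ± 7.38 CPM in OVX8_SCI7, 32.2 ± 7.52 CPM in OVX2_SCI7 and 18.0 ± 2.29 CPM in SCI7, and rose in OVX8_SCI7 (log2 fold change 0.73 ± 0.21, adjusted p = 0.0277, edgeR). In OVX2_SCI7 its log2 fold change was 0.84 ± 0.21 (adjusted p = 0.0520), and with the GC and length offset it was -0.08 in OVX8_SCI7 and 0.24 in OVX2_SCI7.

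Cd8a, a marker of cytotoxic T cells, averaged 0.51 ± 0.24 CPM in OVX8_SCI7, 0.91 ± 0.22 CPM in OVX2_SCI7 and 0.05 ± 0.04 CPM in SCI7, where the mean lay under the value of 3 counts in a library. It rose in OVX8_SCI7 (adjusted p = 0.0143, edgeR), and with the GC and length offset its adjusted p was 0.101 in OVX8_SCI7 and 0.0404 in OVX2_SCI7. The other T and NK cell markers tested did not pass, with Cd3e at 0.38 ± 0.17 CPM in OVX8_SCI7, 0.60 ± 0.17 CPM in OVX2_SCI7 and 0.22 ± 0.13 CPM in SCI7.

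Of the other marker lists against SCI7, genes passed in OVX8_SCI7 as follows, beside 27.5% of all genes, and 0 passed in OVX2_SCI7. Csf3r rose among 8 neutrophil markers tested, Kcnj8 among 7 of pericytes and smooth muscle, and Tmem119 rose and P2ry12 fell among 10 of microglia and macrophages. Among the neutrophil markers 6 were lower and 2 higher in OVX8_SCI7, with a median log2 fold change of -0.25, and -0.20 with the GC and length offset. Among those of pericytes and smooth muscle 4 were lower and 3 higher, with a median of -0.53, and 0.04 with the GC and length offset. Ermn fell among 8 oligodendrocyte markers, of which 4 were higher and 4 lower. None passed among 7 fibroblast, 8 endothelial, 6 oligodendrocyte precursor, 7 neuron, 5 Schwann cell and 5 sensory neuron markers (edgeR).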
